A study of Mus musculus with 15 samples.

Results

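The INK-ATTAC transgene kills cells through caspase 8 fused to FKBP. Described here are 8 endogenous mouse genes, of death pathways and of the FKBP part, across 15 libraries of retinal pigment epithelium (RPE) and choroid. They are Casp8, Fkbp1a, Cflar, Fadd, Ripk1, Ripk3, Mlkl and Casp9, taken by gene symbol from the table of 40481 genes. None of the 8 differed between INK-ATTAC and control libraries after adjustment for multiple testing, and the groups overlapped in every one. The same held for nearly all genes: of 17991 tested, 0 passed and the groups did not overlap in 4 (0.0222%). Casp8 and Fkbp1a, the endogenous counterparts of the transgene's fused parts, lay within 0.21 log2 units of equality at both 95% limits. Cflar, which encodes the inhibitor of caspase 8, and the kinase genes Ripk1 and Ripk3 had the most negative fold changes, with intervals that included 0.

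Caspase 8 is the initiator protease of death receptor signaling. Ligand-bound receptors such as Fas recruit the adaptor FADD, which gathers procaspase 8 so that it dimerizes and becomes active, and cFLIP, the product of Cflar, competes for the same complex. Where caspase 8 is inactive, the kinases RIPK1 and RIPK3 can activate MLKL, which breaches the plasma membrane in necroptosis. Caspase 9 is the initiator of the other, mitochondrial route. In mouse eyes, both caspase-driven and RIPK3-driven death have been studied in photoreceptors and RPE under stress. FKBP12, the product of Fkbp1a, is a small cytosolic binding protein for the drugs FK506 and rapamycin, and engineered forms of it are joined by dimerizing drugs.

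The series concerns mice with drusenoid deposits beneath the retina. The 8 INK-ATTAC libraries came from mice with floxed Abca1 and Abcg1 (cholesterol efflux transporters), LysM-Cre, a recombinase active in myeloid cells, and the INK-ATTAC transgene. The 7 control libraries came from mice with the same floxed alleles and LysM-Cre but no transgene. The transgene uses the p16Ink4a promoter to make caspase 8 fused to FKBP, which the dimerizer AP20187 activates. All 15 libraries are labelled with intraperitoneal AP20187, and dosing on alternate days for 3 months is described for the INK-ATTAC mice. The comparison therefore concerns the transgene among mice all labelled as given the drug. The labels give neither age nor sex and do not tie libraries to animals, so p-values measure the spread between libraries, which may be partly technical.

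Libraries held 47954634 to 65065950 counts in the INK-ATTAC group and 39121503 to 59974025 in controls, and 17991 genes passed the low-count filter, all 8 members among them. The 8 RPE markers summed to between 72440 and 96400 CPM (read counts scaled to a common library size) in INK-ATTAC libraries and between 65700 and 86270 CPM in controls, and none was at 0 in all libraries. The tissue is a mixture: fewer cells of a type and less RNA per cell cannot be told apart. Sums of markers for tissue next to the RPE/choroid varied widely. Lens markers summed to 19.4 to 882.8 CPM in INK-ATTAC libraries and 20.3 to 129.8 CPM in controls, with 11 of 11 tested markers higher on average in INK-ATTAC. Skeletal muscle markers summed to 715 to 3958 CPM in INK-ATTAC libraries and 296 to 2752 CPM in controls, with 10 of 10 higher. Rod photoreceptor markers summed to 457.5 to 2463 CPM in INK-ATTAC libraries and 783 to 2713 CPM in controls, with 11 of 12 lower. The part of these tissues in the differences below was not tested beyond fits with their levels as covariates. Cdkn2a, whose locus encodes p16Ink4a and whose promoter drives the transgene, had 0 to 4 reads per library in the INK-ATTAC group and 0 to 2 in controls, too few for the filter.

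Promoter windows from RefSeq (GRCm38.p6, 250 bases before to 50 after the annotated start) are shown for Casp8 and Fkbp1a, the endogenous counterparts of the fused parts, and for Cflar, the neighbor of Casp8 on chromosome 1. CG dinucleotides are in capitals, and each sequence runs 5′ to 3′ on the plus strand.
Casp8, chr1:58802252-58802551: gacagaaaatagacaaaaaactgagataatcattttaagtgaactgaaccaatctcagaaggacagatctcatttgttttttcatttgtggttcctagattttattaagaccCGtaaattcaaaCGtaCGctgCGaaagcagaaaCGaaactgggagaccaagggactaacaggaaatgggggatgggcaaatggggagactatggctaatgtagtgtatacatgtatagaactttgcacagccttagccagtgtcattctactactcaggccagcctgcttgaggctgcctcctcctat
Cflar, chr1:58711241-58711540: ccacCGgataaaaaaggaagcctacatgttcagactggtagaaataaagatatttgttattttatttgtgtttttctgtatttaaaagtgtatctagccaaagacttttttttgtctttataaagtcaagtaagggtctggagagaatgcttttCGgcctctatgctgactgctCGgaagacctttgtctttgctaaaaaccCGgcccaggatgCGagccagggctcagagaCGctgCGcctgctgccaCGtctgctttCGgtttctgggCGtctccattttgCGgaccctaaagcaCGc
Fkbp1a, chr2:151542233-151542532: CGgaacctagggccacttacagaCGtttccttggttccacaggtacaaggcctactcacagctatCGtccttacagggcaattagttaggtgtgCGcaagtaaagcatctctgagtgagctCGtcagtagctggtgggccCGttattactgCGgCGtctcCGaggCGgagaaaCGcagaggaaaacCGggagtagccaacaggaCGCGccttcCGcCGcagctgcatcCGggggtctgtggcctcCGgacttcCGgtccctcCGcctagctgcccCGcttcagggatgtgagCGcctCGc
The Casp8 window lies inside the span annotated for the gene by GENCODE, past its first base. The Casp8 window held 5 CG dinucleotides, the Cflar window 12 and the Fkbp1a window 23, against a median of 7 over 32851 windows. Of all windows, 38.0% had fewer than Casp8, 60.4% fewer than Cflar and 78.5% fewer than Fkbp1a. On either strand, the Cflar window held TATAAA, found in 13.6% of windows, and 2 copies of GAAA on 1 strand with 2 bases between them, found in 3.44%. The Fkbp1a window held CCGGAAG, found in 8.86%. The Casp8 window held none of these 3 motifs. All 8 genes matched the RefSeq table, and Fadd had 22, Casp9 28, Ripk3 10 and Mlkl 7 CG dinucleotides in theirs. Ripk1 had 2 windows, with 22 and 36. The Mlkl window held CCGGAAG, and the Ripk1 window with 36 held both CCGGAAG and the spaced GAAA copies. The windows of Fadd, Casp9 and Ripk3 and the other Ripk1 window held none of the 3 motifs.

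Levels of different genes were compared as CPM per kilobase of annotated exon, averaged over all 15 libraries. Fkbp1a was the most abundant of the 8 at 63.6 ± 4.90 CPM per kb (SD, n = 15). Cflar, at 8.496 ± 0.60 CPM per kb, and Casp8, at 8.44 ± 0.86 CPM per kb, came next. This pair could not be ordered, since Cflar was the higher in 7 of 15 libraries. Fadd had 6.22 ± 0.69 CPM per kb and was below Casp8 in 13 of 15 libraries. Casp9 had 4.31 ± 0.37 CPM per kb and was below Fadd in 15 of 15.

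The necroptosis genes were the least abundant. Ripk3 had 2.47 ± 0.61 CPM per kb and Mlkl, the membrane effector, 2.18 ± 0.36, with Ripk3 the higher in 9 of 15 libraries, so their order was not settled. Ripk1, the kinase that links death receptors to both routes, had 0.67 ± 0.091 CPM per kb and was below Mlkl in 15 of 15 libraries. With the longest annotated transcript in place of all exons, the order of the 8 means was the same, but Cflar stood apart from Casp8, at 16.4 against 9.45 CPM per kb. Fadd and Casp9 then lay closer, at 6.22 ± 0.69 and 5.75 ± 0.49 CPM per kb. Their order was then not kept in every library. In INK-ATTAC 3, Casp9 had 25.9 CPM and Fadd 23.1 CPM, with longest transcripts of 3897 and 3903 bases.

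**Figure D1:**
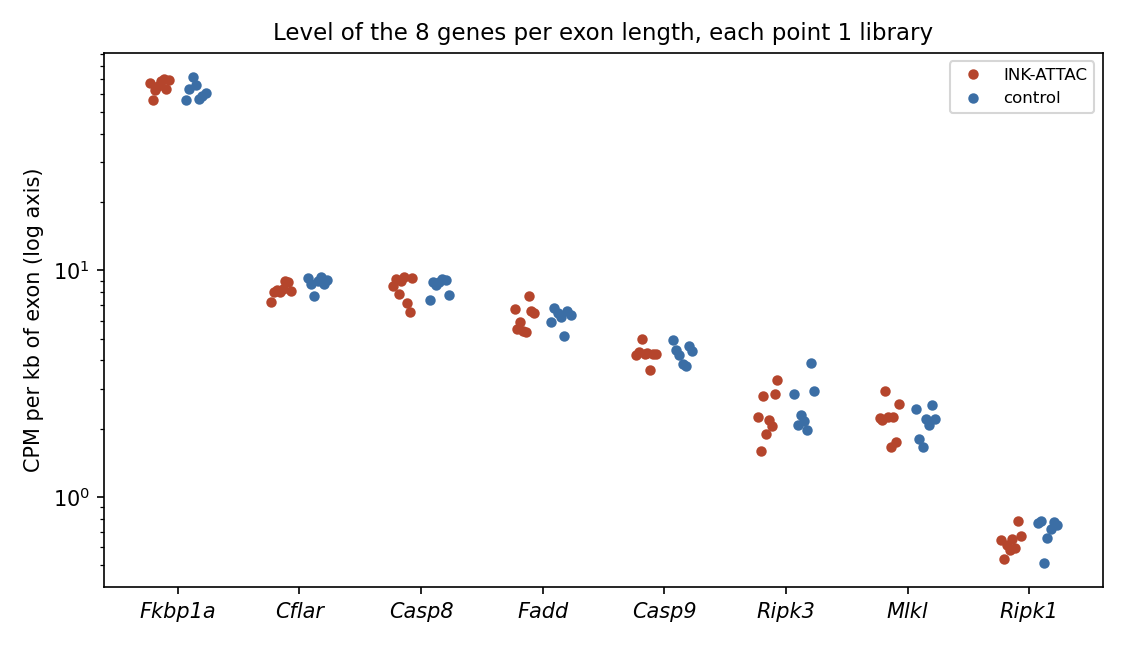
Level of each of the 8 genes in CPM per kilobase of exon on a log axis, with 1 point per library, colored by group. Fkbp1a lies above all others and Ripk1 is lowest. The ranges of Cflar, Casp8 and Fadd overlap, as do those of Casp9 and Ripk3 and those of Ripk3 and Mlkl.

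The group difference was tested for every gene with edgeR's quasi-likelihood test. After Benjamini-Hochberg adjustment, 0 of 17991 genes (0%) passed the 0.05 threshold, and 745 (4.14%) had an unadjusted p under 0.05. Of the 8 members, 0 passed and 0 had an unadjusted p under 0.05, in the higher direction (2.2% of all genes) or the lower (1.94%). DESeq2 called 6 genes and limma-voom 0, with no member among them. The log2 fold change, INK-ATTAC over control, was positive for 3 members and negative for 5, with a median of -0.02, while 50.2% of all genes tested were negative, with a median of -0.00097. In 4 of all genes tested (0.0222%) no INK-ATTAC library overlapped a control library, and 0 of the 8 members were among them.

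Casp8 (ENSMUSG00000026029, GRCm38 chr1:58795374-58847503, plus strand) had 19.0, 25.3 and 27.0 CPM as the lowest, median and highest of 8 INK-ATTAC libraries, and 21.5, 25.6 and 26.5 CPM of 7 controls. The control range lay inside the INK-ATTAC range, whose low end was set by INK-ATTAC 7 (19.0 CPM) and INK-ATTAC 6 (20.8 CPM). Means were 24.2 ± 3.01 CPM in INK-ATTAC libraries and 24.7 ± 1.93 CPM in controls (SD, n = 8 and 7). The log2 fold change was -0.03 (SE 0.084, 95% interval -0.21 to 0.15, edgeR adjusted p = 1.00). On the linear scale that interval runs from 0.867 to 1.11 times the control level. Casp8 had 998 to 1492 reads per library, so that counting error was 2.83% of the level, against a spread between libraries of 10.2%.

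Fkbp1a (ENSMUSG00000032966, chr2:151542483-151561692, plus strand) had 218, 255 and 269 CPM as the lowest, median and highest INK-ATTAC libraries, and 219, 233 and 274 CPM in controls. The ranges nearly coincided, and 1 of the 8 INK-ATTAC libraries lay below the control median. The mean was 251.5 ± 16.7 CPM in INK-ATTAC libraries and 238 ± 20.03 CPM in controls. The log2 fold change was 0.08 (SE 0.063, interval -0.06 to 0.21, adjusted p = 1.00), or 0.962 to 1.16 times the control level. The transgene also carries FKBP and caspase 8 sequence. Gene counts do not separate reads of a transgene from those of the endogenous gene, so any such reads cannot be told apart here.

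Cflar (ENSMUSG00000026031, chr1:58711508-58758884, plus strand) had 92.1, 103 and 113 CPM as the lowest, median and highest INK-ATTAC libraries, and 97.8, 113 and 118 CPM in controls. In 7 of 8 INK-ATTAC libraries it lay below the control median. Ripk1 and Casp9 had the same count, though the log2 fold change of Casp9 was -0.0074. The share of all genes with such a count was not computed. The Cflar ranges still overlapped. Control 3, at 97.8 CPM, lay below 7 of the 8 INK-ATTAC libraries. INK-ATTAC 6 and 7, at 113 and 112.3 CPM, lay above controls 2 and 6, at 110.6 and 110.8 CPM. The mean was 104 ± 6.74 CPM in INK-ATTAC libraries and 111.8 ± 6.79 CPM in controls, a log2 fold change of -0.10 (SE 0.058, interval -0.23 to 0.018, unadjusted p = 0.0910, edgeR adjusted p = 1.00). Without control 3 the log2 fold change was -0.13, with an unadjusted p of 0.0285 and an edgeR adjusted p of 0.801. Leaving out control 3 put 1123 of 18192 genes under an unadjusted p of 0.05, against 745 of 17991 with all libraries. The authors' deposited table gave Cflar -0.12 (95% limits -0.24 to -0.0033), with a p-value of 0.0446 and an adjusted p-value of 0.768. There, 930 of the 14491 entries (6.42%) had a p-value under 0.05, and Cflar was the only member of the 8 among them. Control 3 also had the highest summed rod and mast cell markers of the 15 libraries, 2713 and 90.2 CPM. Its lens markers, at 129.8 CPM, were the highest of the controls. Over the 15 libraries Cflar had r = 0.063 with rod, -0.291 with mast cell and -0.679 with lens marker levels. With the rod level as a covariate, the log2 fold change of Cflar was -0.107, against -0.104 without it. The part of these tissues in the value of control 3 was not tested.

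Fadd (ENSMUSG00000031077, chr7:144577318-144582463, minus strand), the adaptor between death receptors and caspase 8, had 20.8, 24.3 and 30.04 CPM as the lowest, median and highest INK-ATTAC libraries, and 19.9, 24.8 and 26.7 CPM in controls. The highest value, 30.04 CPM, came from INK-ATTAC 6, which was the second lowest for Casp8. Means were 24.3 ± 3.22 CPM in INK-ATTAC libraries and 24.3 ± 2.22 CPM in controls, a log2 fold change of 0.00015 (SE 0.087, interval -0.18 to 0.18, edgeR adjusted p = 1.00).

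**Figure D2:**
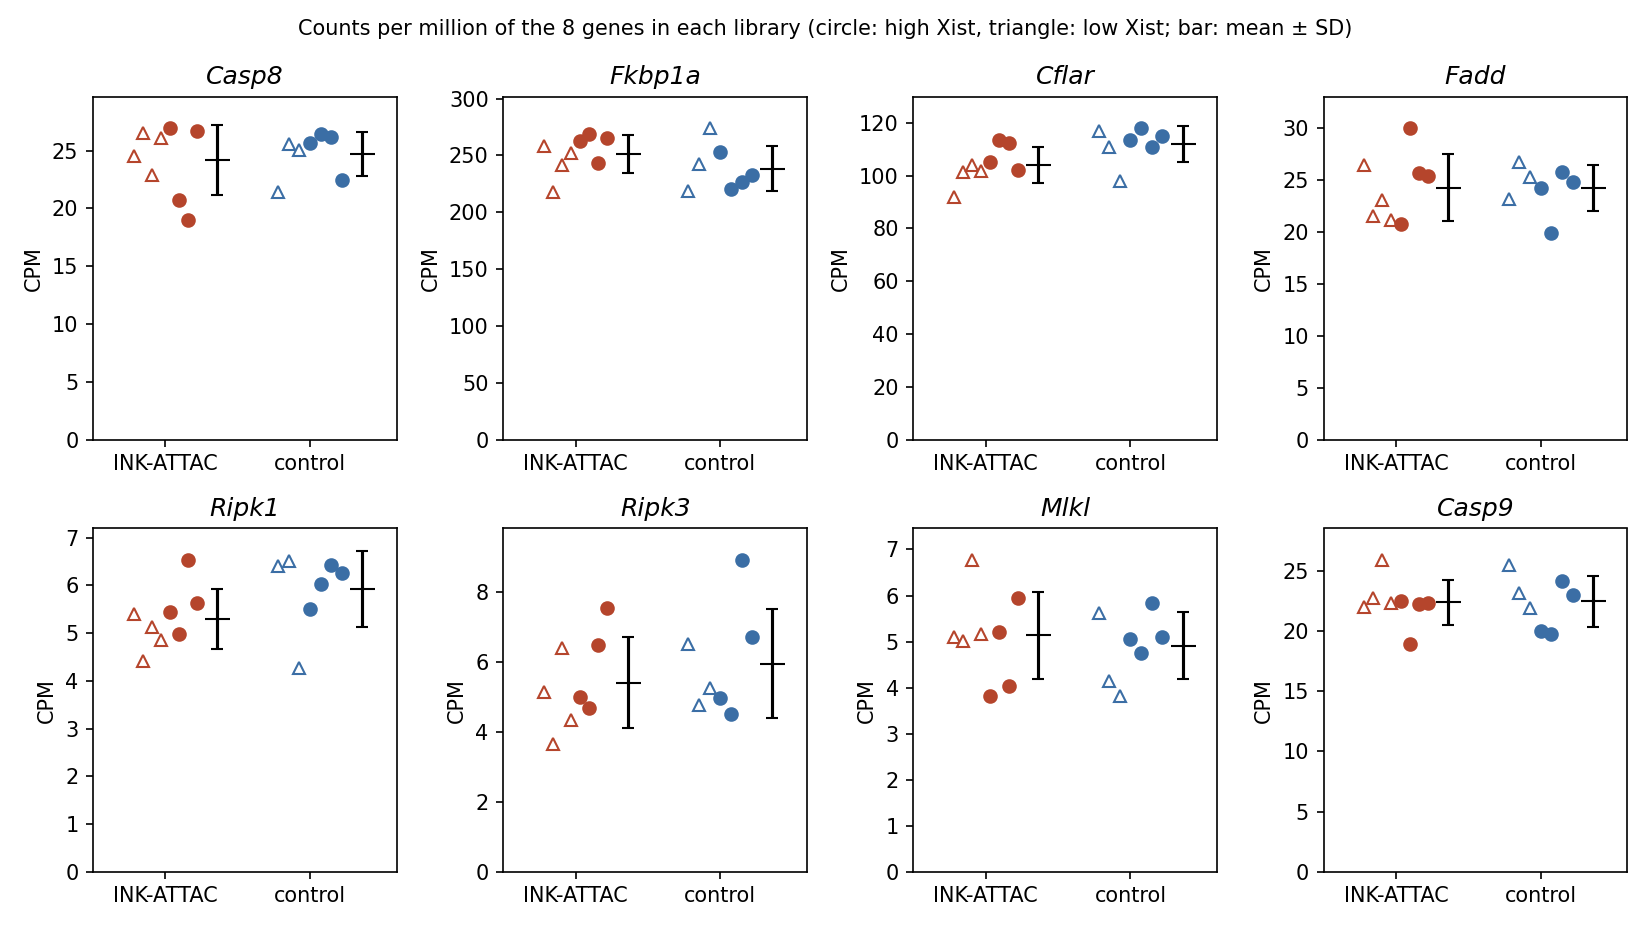
CPM of each of the 8 genes, with 1 point per library, 8 INK-ATTAC libraries on the left and 7 controls on the right of each panel, and bars for the mean and SD. The groups overlap in every panel, and for Cflar 1 control (97.8 CPM) lies apart from the other 6, which span 110.6 to 118 CPM.

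Ripk1 (ENSMUSG00000021408, chr13:34002363-34037147, plus strand) had 4.42, 5.26 and 6.54 CPM as the lowest, median and highest INK-ATTAC libraries, and 4.28, 6.26 and 6.50 CPM in controls. In 7 of 8 INK-ATTAC libraries it lay below the control median, but the lowest of all 15 values was that of control 3. Means were 5.30 ± 0.63 CPM in INK-ATTAC libraries and 5.92 ± 0.80 CPM in controls. The log2 fold change was -0.16 (SE 0.112, interval -0.39 to 0.075, edgeR adjusted p = 1.00). Without control 3 it was -0.23, with an unadjusted p of 0.0396 and an edgeR adjusted p of 0.801. In that fit 1123 of 18192 genes had an unadjusted p under 0.05, against 745 of 17991 with all libraries. With the skeletal muscle level as a covariate the log2 fold change of Ripk1 was -0.05, and with the lens level -0.09. At 210 to 385 reads per library, counting error was 6.13% of the level. The exons of Ripk1 share 241 bases with Serpinb6a on the opposite strand, a gene with 9454 to 14986 reads per library, and the strand setting of the counting is not given in the sources used here. Shared exon bases elsewhere involved genes with few reads, such as Faddos, antisense to Fadd, with 0 to 6 reads per library, and a pseudogene within Ripk1 with 0 to 13.

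Ripk3 (ENSMUSG00000022221, chr14:55784995-55788865, minus strand), the kinase that activates MLKL, had 3.66, 5.08 and 7.54 CPM as the lowest, median and highest INK-ATTAC libraries, and 4.51, 5.27 and 8.92 CPM in controls. It was the most variable of the 8, with a spread over the 15 libraries of 24.7% of its mean. The median spread was 13.8% over 10969 tested genes averaging 4 to 300 CPM. Ripk3, at 5.66 CPM, lay near the low end of that range, so this background is not matched to its level. The highest value came from control 6, and without that library the log2 fold change was -0.01, against -0.14 with it (SE 0.172, interval -0.50 to 0.22, edgeR adjusted p = 1.00). It was also -0.0097 with the skeletal muscle level as a covariate and -0.06 with the macrophage level. Means over all libraries were 5.41 ± 1.29 CPM in INK-ATTAC libraries and 5.95 ± 1.56 CPM in controls.

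Mlkl (ENSMUSG00000012519, chr8:111311797-111338177, minus strand) had 3.82, 5.14 and 6.78 CPM as the lowest, median and highest INK-ATTAC libraries, and 3.83, 5.06 and 5.84 CPM in controls. The low and middle values of both groups nearly matched, and INK-ATTAC 3 and INK-ATTAC 8 were above every control. The log2 fold change was 0.06 (SE 0.134, interval -0.22 to 0.35, edgeR adjusted p = 1.00), with means of 5.14 ± 0.95 CPM in INK-ATTAC libraries and 4.91 ± 0.73 CPM in controls. Casp9 (ENSMUSG00000028914, chr4:141793612-141815976, plus strand), the initiator caspase gene of the mitochondrial route, had 18.9, 22.3 and 25.9 CPM as the lowest, median and highest INK-ATTAC libraries, and 19.7, 23.0 and 25.5 CPM in controls. Its log2 fold change was -0.0074 (SE 0.074, interval -0.16 to 0.15, edgeR adjusted p = 1.00), with means of 22.4 ± 1.87 CPM in INK-ATTAC libraries and 22.5 ± 2.11 CPM in controls.

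**Figure D3:**
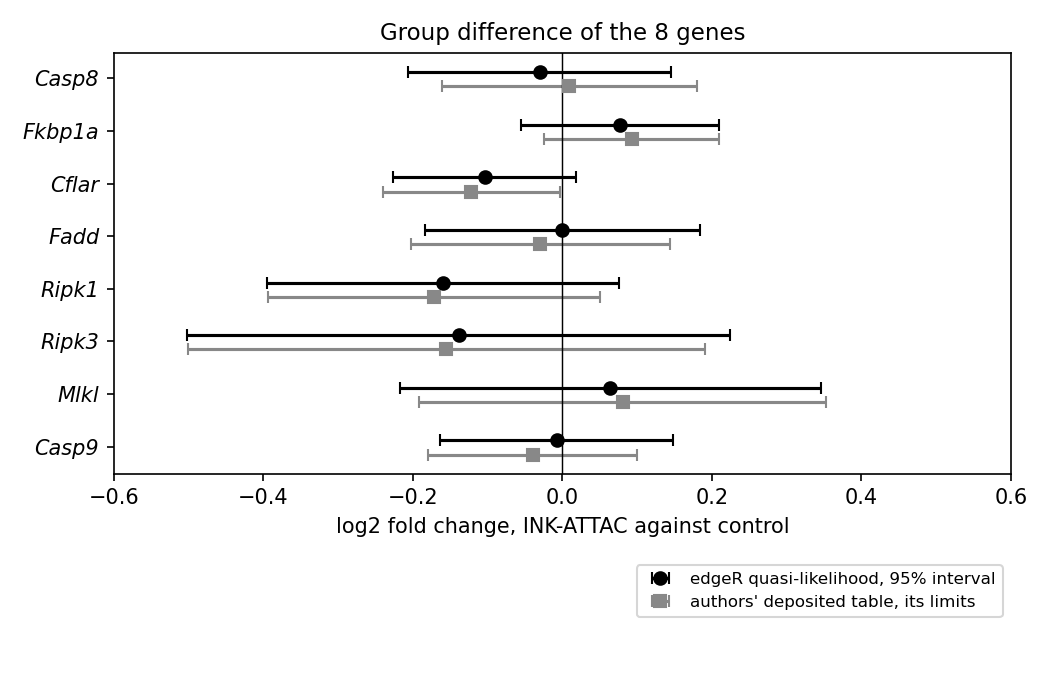
Log2 fold change of the 8 genes, INK-ATTAC over control, with 95% intervals from edgeR's quasi-likelihood test and the values of the authors' deposited table. Every edgeR interval includes 0; the narrowest belong to Cflar and Fkbp1a and the widest to Ripk3.

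The authors' deposited table, made from the same libraries, gave fold changes for the 8 genes between -0.17 for Ripk1 and 0.09 for Fkbp1a, with adjusted p-values of 0.768 or more. Its value for Casp8, 0.0093, had the opposite sign to the -0.03 of the edgeR test.

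Ratios of CPM within each library were compared between the groups. CPM was not divided by gene length here, so the size of a ratio does not show which gene was more abundant. Per kb of exon, the mean of Cflar was 1.007 times that of Casp8. Cflar over Casp8 was 4.39 ± 0.846 in INK-ATTAC libraries and 4.56 ± 0.533 in controls (SD, n = 8 and 7), with ranges of 3.75 to 5.91 in INK-ATTAC libraries and 3.91 to 5.45 in controls. The highest ratio was that of INK-ATTAC 7, which had the lowest Casp8. Fkbp1a over Casp8 was 10.6 ± 1.61 in INK-ATTAC libraries and 9.70 ± 0.94 in controls. Ripk3 over Mlkl was 1.08 ± 0.293 in INK-ATTAC libraries and 1.21 ± 0.211 in controls, and the groups overlapped in all 3 ratios.

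Xist, the RNA of the inactive X chromosome, divided the libraries into a low class, with 4 INK-ATTAC and 3 control libraries, and a high class, with 4 of each group, and the group difference was also taken within each class. Cflar had a negative fold change in both, at -0.12 in the low and -0.08 in the high class, as did Ripk1 (-0.21 and -0.11) and Ripk3 (-0.18 and -0.09). Mlkl had 0.28 in the low and -0.13 in the high class, a difference of 0.41 (SE 0.265, unadjusted p = 0.142, edgeR interaction test adjusted p = 0.876). Casp8 had 0.06 in the low and -0.11 in the high class. Fkbp1a had -0.01 and 0.15, and Fadd -0.12 and 0.10. No interaction of a member passed the threshold, so the classes were not shown to differ.

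Whether the members vary together was asked over all 15 libraries, on log2(CPM + 1) values with 100000 permutations. Of 28 pairs, 0 passed after adjustment, 14 had a positive Pearson r, and the median r was 0.0017. The strongest pair was Cflar with Ripk1, at r = 0.636 (permutation p = 0.0115, adjusted p = 0.322) and Spearman rho = 0.593 (permutation p = 0.0219, adjusted p = 0.460). After leaving out the 2 libraries farthest from the median of Cflar it was 0.666, and with group means removed it was 0.546. Within groups it differed, at 0.270 in INK-ATTAC libraries and 0.815 in controls. Ripk1 with Ripk3 had r = 0.555 (permutation p = 0.0327, adjusted p = 0.455) and rho = 0.504 (permutation p = 0.0580). Without the 2 libraries farthest from the median of Ripk1 this pair had r = 0.474.

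Casp8 and Cflar lie on the same strand of chromosome 1, 36489 bases apart, with 1 annotated gene and no protein-coding gene between them. Their levels had r = -0.356 (permutation p = 0.191). Casp8 and Fkbp1a had r = 0.02 (permutation p = 0.936). In INK-ATTAC libraries, Casp8 and Cflar in INK-ATTAC 6 and 7 stood at opposite ends, with the 2 lowest Casp8 values beside the 2 highest Cflar values of the group.

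**Figure D4:**
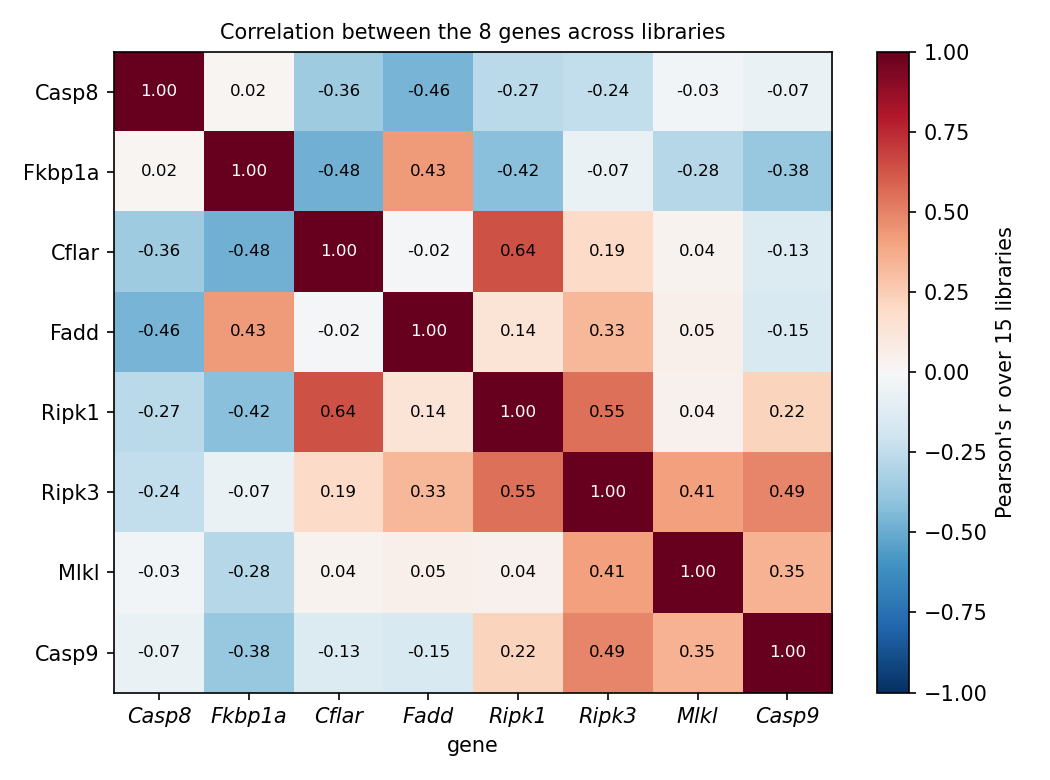
Pearson r of log2(CPM + 1) over 15 libraries for each of the 28 pairs of the 8 genes. The largest positive value is that of Cflar with Ripk1 (0.636), and no pair passed after adjustment.

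The members were set against the mean level of 14 lists of cell type markers, and 0 of all such pairs passed after adjustment over all of them. Ripk3 with pericyte and smooth muscle markers came closest, at r = 0.760 (permutation p = 9e-04, adjusted p = 0.101) and rho = 0.757 (permutation p = 0.0017, adjusted p = 0.106). It was 0.674 without the 2 libraries farthest from the median marker level, 0.734 within the INK-ATTAC group and 0.821 within controls. These markers summed to 556.5 to 933 CPM in INK-ATTAC libraries and 477.9 to 935.3 CPM in controls. Ripk3 with endothelial markers had r = 0.646 (permutation p = 0.0092, adjusted p = 0.303). That r fell to 0.340 without INK-ATTAC 2 and control 6, the 2 libraries farthest from the median endothelial marker level. Ripk3 with macrophage markers had r = 0.607 (permutation p = 0.0162, adjusted p = 0.303) and rho = 0.75 (permutation p = 0.0019, adjusted p = 0.106). Macrophage markers summed to 2467 to 3474 CPM in INK-ATTAC libraries and 2580 to 3398 CPM in controls. Schwann cell (r = 0.549) and neutrophil markers (r = 0.527) also had unadjusted permutation p-values under 0.05 with Ripk3. The most negative r of Ripk3 was that with RPE markers, -0.504 (permutation p = 0.0561), so no single cell type was marked out.

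Cflar with lens markers had r = -0.679 (permutation p = 0.0052, adjusted p = 0.290) and rho = -0.664 (permutation p = 0.0084). Without the 2 libraries farthest from the median lens marker level r was -0.851, with an adjusted p of 0.0515 in the permutation test. With the lens level as a covariate the log2 fold change of Cflar was -0.06, against -0.10 without it.

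**Figure D5:**
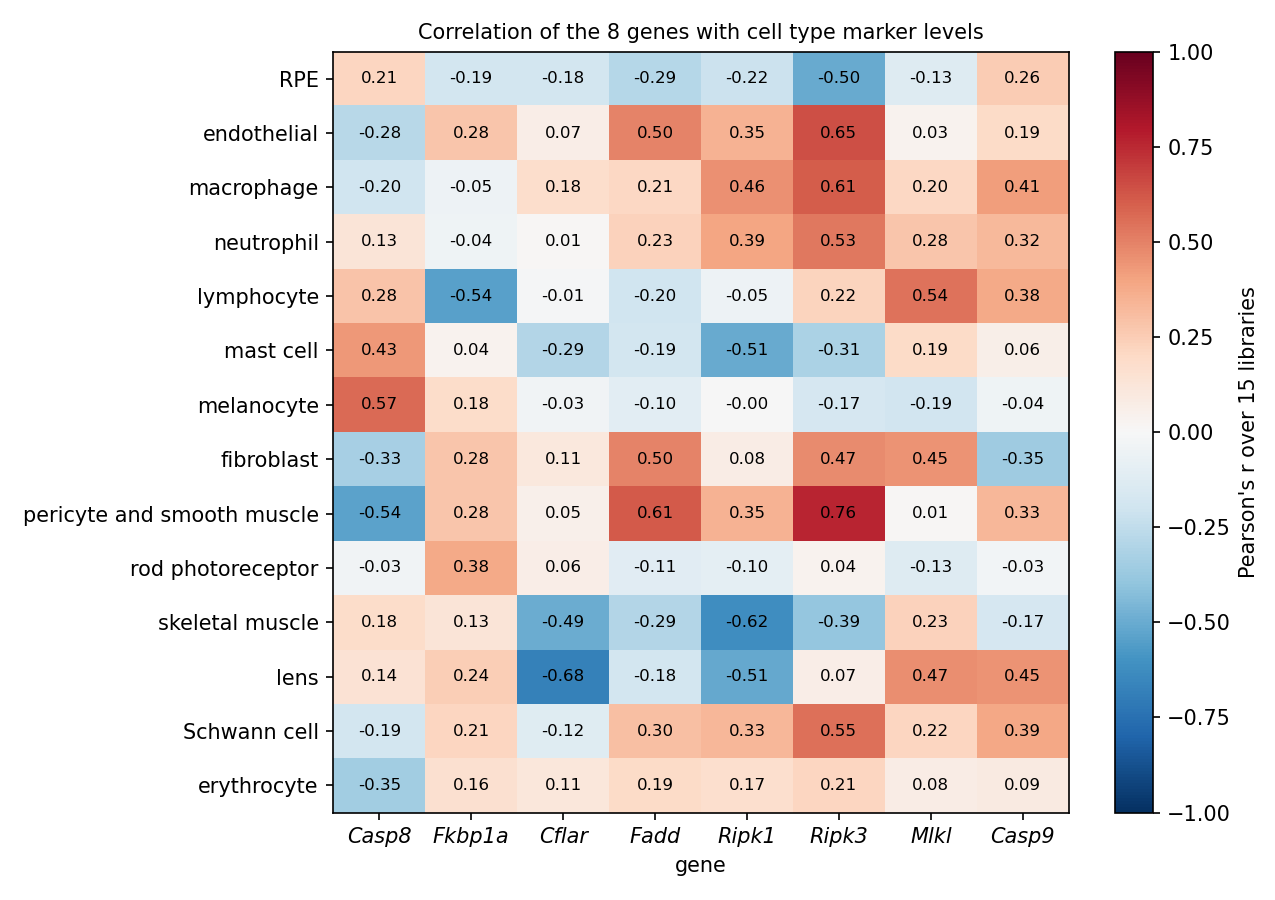
Pearson r of log2(CPM + 1) of each of the 8 genes with the mean level of each of 14 marker lists over 15 libraries. Ripk3 has its highest value with pericyte and smooth muscle markers (0.760) and Cflar its lowest with lens markers (-0.679), and no pair passed after adjustment.

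The genes whose levels followed Casp8 and Fkbp1a most closely were sought among 9046 genes averaging 3 or more log2 CPM, as a description over 15 libraries that share depth and tissue makeup. For Casp8 they were Mrps22 (r = 0.747), Rfesd (r = 0.724) and Vta1 (r = 0.723). For Fkbp1a they were Tsc22d4 (r = 0.874), Aph1a (r = 0.858) and Selenom (r = 0.850).

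Beyond the members, 92 genes in 8 lists were examined, of which 89 passed the low-count filter. These lists include the FKBP family (16 genes) and partners of FKBP12 (11 genes), which are not death pathway genes. None passed the adjusted threshold, 2 (2.25%) had an unadjusted p under 0.05, both lower in INK-ATTAC, and 50 of the 89 (56.2%) had a negative fold change. Over all genes tested these shares were 4.14% and 50.2%. The median log2 fold change was -0.01.

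Among death ligands and receptors, 9 of 10 genes were tested, 7 with a negative and 2 with a positive fold change, and the median was -0.09. Tnfrsf10b, the mouse receptor for TRAIL, averaged 16.1 ± 1.85 CPM in INK-ATTAC libraries and 18.3 ± 1.16 CPM in controls, a log2 fold change of -0.18 (SE 0.080, unadjusted p = 0.0330, edgeR adjusted p = 1.00). Fas, the receptor that recruits FADD directly, had 0.12 (SE 0.085, edgeR adjusted p = 1.00). Per kb of exon the 6 receptors of the list ranged widely. Tnfrsf1a, the main TNF receptor, had 34.0 and Fas 12 CPM per kb, while Tnfrsf10b had 3.14, Tnfrsf21 1.06 and Tnfrsf25 0.13 CPM per kb. Of the ligands tested, Tnfsf10, which encodes TRAIL, had 1.20, Tnf 0.22 and Fasl 0.20 CPM per kb, so that the ranges of receptors and ligands overlapped. The ligands, Tnfrsf21 and Tnfrsf25 were named after their values were seen.

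The adaptors, ubiquitin enzymes and kinases of the receptor complexes were all tested, 21 of 21, with 9 positive, 12 negative and a median of -0.01. Cyld, a deubiquitinase that acts on RIPK1 complexes, averaged 29.1 ± 1.76 CPM in INK-ATTAC libraries and 33.5 ± 3.88 CPM in controls, a log2 fold change of -0.21 (SE 0.071, unadjusted p = 0.0101, edgeR adjusted p = 1.00). Ikbkg, which encodes NEMO, had -0.16 (unadjusted p = 0.0583, edgeR adjusted p = 1.00). Rbck1, a subunit of the linear ubiquitin ligase, had 9.42 CPM per kb and Ikbkb, a kinase of the NF-kB pathway, 1.98 CPM per kb.

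Necroptosis triggers and regulators had 10 of 10 genes tested, 6 positive and 4 negative, with a median of 0.07. Cdc37, a co-chaperone of kinases, had 0.12 (unadjusted p = 0.0877) and Tlr4, a receptor for bacterial lipopolysaccharide, -0.20 (unadjusted p = 0.138), both with an edgeR adjusted p of 1.00. Hsp90aa1, a stress-inducible HSP90 chaperone, had 138 CPM per kb and Cdc37 had 13.5 CPM per kb. The executioner caspases and their substrates had 13 of 13 tested, 4 positive and 9 negative, with a median of -0.01. Casp6, an executioner caspase, had 7.68 CPM per kb and Rock1 2.05 CPM per kb. Rock1, a kinase cleaved during apoptosis, had a log2 fold change of -0.15 and Panx1, a channel opened by caspase cleavage, 0.15, with unadjusted p-values of 0.268 and 0.373 in the edgeR test. Panx1 ranged between 0.07 without INK-ATTAC 6 and 0.24 without control 4.

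Of 6 genes of the apoptosome and of inhibitors of apoptosis, 4 were positive and 2 negative. Xiap, an inhibitor of caspases, averaged 32.3 ± 2.29 CPM in INK-ATTAC libraries and 36.2 ± 4.87 CPM in controls, a log2 fold change of -0.17 (SE 0.079, unadjusted p = 0.0511, edgeR adjusted p = 1.00). Diablo, which encodes an antagonist of such inhibitors, had 0.05. Cycs, cytochrome c, had 27.4 CPM per kb and Birc6 2.29. Of the 4 other caspases tested, all were negative, with a median of -0.06, and Casp4, an inflammatory caspase, had -0.26 (unadjusted p = 0.205) and Casp1, its relative, -0.08 (unadjusted p = 0.558) in the edgeR test. Without control 6 Casp4 had -0.12, and with the skeletal muscle level as a covariate -0.06. Casp2 had 2.21 and Casp12, a caspase of the endoplasmic reticulum, 2.61 CPM per kb.

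The FKBP family had 15 of 16 genes tested, 9 positive and 6 negative, with a median of 0.0021. Fkbp4, a co-chaperone of steroid receptors, was above Fkbp1a per kb of exon, at 91.1 CPM per kb, but not per kb of longest transcript, where it had 95.03 against 122 for Fkbp1a. Fkbp8, which resides at mitochondria, had 42.6 CPM per kb of exon. Fkbp1b, the closest relative of Fkbp1a, had 6.10 CPM per kb and a log2 fold change of 0.18 (unadjusted p = 0.151, edgeR adjusted p = 1.00). Of 11 known partners and targets of FKBP12, 5 were positive and 6 negative. They included Mtor, the kinase inhibited by rapamycin bound to FKBP12, with 0.11 (unadjusted p = 0.106), and Itpr1, an intracellular calcium channel, with 0.17 (unadjusted p = 0.145), both with an edgeR adjusted p of 1.00. Their levels were 5.42 CPM per kb for Mtor and 4.53 CPM per kb for Itpr1. The 3 genes that did not pass the filter were Lta, with 51 counts over the INK-ATTAC libraries and 42 over controls, Casp14, with 7 over the INK-ATTAC libraries and 0 over controls, and Fkbp6, with 24 over the INK-ATTAC libraries and 4 over controls.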

How the data were processed

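RNA-seq of 15 libraries (8 INK-ATTAC, 7 control) was analysed from the deposited files. Per the labels' protocols, TRIzol and NucleoSpin columns were used for RNA and SMARTer kits for cDNA. The submitters' processing notes list bcl2fastq, DRAGEN, limma, edgeR and build GRCm38; counter and strand setting were not given in the sources used here. The authors deposited raw read counts per gene (40757 entries, of which 276 repeats were collapsed). The authors' deposited comparison table holds, per the file headers, log2 fold changes and log2 CPM with limits, p-values, adjusted p-values, and scores (moderated statistic, log odds, signed linear fold).

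Counts were scaled with TMM and filtered with filterByExpr (edgeR 4.0.16, R 4.3.3), and 17991 were tested with the two-sided quasi-likelihood F-test without covariates, with Benjamini-Hochberg adjustment and a threshold of 0.05. Standard errors came from the fold change and the F statistic. CPM is on TMM library sizes; positions and exon lengths came from GENCODE. Correlations used log2(CPM + 1). Alternatives were other scalings, filters and tools (limma 3.58.1, DESeq2 1.42.0), marker covariates, number blocks, Xist classes and leaving out each library. Amplified copies without molecular identifiers are not independent, so counting errors cover counting only. Scripts were tested on simulated data. The members and the lists of pathway and marker genes were chosen with earlier results of these data known. Genes named were the members, from each list the 2 of lowest p and the 2 of highest mean CPM, Cdkn2a, and the 3 genes most like Casp8 and Fkbp1a. 1 gene that this rule picks is not reported here.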

Additional observations from a re-analysis of the deposited data

Results flagged for a closer look

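Of 48 group values examined for a library that stands apart, 2 were picked out by Dixon's test, and chance alone picks out about 1 group in 20. Cflar in control 3 was 97.8 CPM, against 110.6 CPM for the nearest of the other controls (gap over range 0.632, critical value 0.568). Itpr1 in control 1 was 105.5 CPM, against 82.4 CPM for the nearest of the other controls (gap over range 0.576, critical value 0.568).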

How the results depend on the processing

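Over 30 settings, 0 members and 0 of the other genes in the 8 lists passed the adjusted threshold, and the lowest adjusted p of a member was 0.714, for Cflar. Cflar, Ripk1 and Ripk3 had a negative fold change in all 30, but its size moved, from -0.134 to -0.0554 for Cflar, -0.225 to -0.0544 for Ripk1 and -0.222 to -0.0097 for Ripk3, with the smallest under the lens covariate for Cflar and the skeletal muscle covariate for Ripk1 and Ripk3. DESeq2 called 6 genes of the whole table and limma-voom with quality weights 2; the cause was not tested. Per kb of longest transcript the levels were 9.45 for Casp8, 122 for Fkbp1a, 16.4 for Cflar, 0.863 for Ripk1 and 5.75 for Casp9, since the length divided by is shorter.

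Fold changes near 0 changed sign, and the cause was not tested. Fadd was -0.0012 with RLE scaling, -0.0010 with DESeq2, -0.0025 with limma-voom, -0.0308 with quality weights, -0.0091 with the rod covariate and -0.118 in libraries of low Xist. Casp8 was 0.0028 with quality weights and 0.0586 at low Xist. Casp9 was 0.0173 with the muscle and 0.0190 with the macrophage covariate, and its difference between Xist classes was 0.0068 with RLE scaling and 0.0095 with the CPM filter. Mlkl was -0.0577 with the lens covariate and -0.132 at high Xist. At low Xist Fkbp1a was -0.0146, Fkbp1b -0.0121 and Tlr4 0.0153. Diablo was -0.0272 with the muscle covariate and -0.0307 at high Xist. Casp1 was 0.0073 with the lens covariate and 0.11 at low Xist. Leaving out 1 library in turn gave -0.0712 to 0.0130 for Casp8, -0.0508 to 0.0186 for Fadd, -0.00329 to 0.111 for Mlkl, -0.0453 to 0.0240 for Casp9 and -0.138 to 0.00535 for Casp1. Among genes that kept their sign when 1 library was left out, Fas was 0.07 without INK-ATTAC 4 and 0.07 without control 5, Fkbp1b 0.12 without control 1, Tlr4 -0.10 without control 4, and Rock1 -0.09 without control 4 and -0.23 without INK-ATTAC 7. Ripk3 was -0.08 without INK-ATTAC 2 and -0.22 without INK-ATTAC 8.

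Whether the numbers in the labels pair the samples was not settled. Of 7 same-numbered pairs, 4 deviated together at a correlation over 0.1 by title number and 4 by description number. By title number 2, and by description number 3, correlated best with their own number. Correlations by description number ran from -0.246 to 0.654. Samples of the same description number also shared an Xist class, so this check cannot tell pairing from class. With the replicate block 0 genes were called, and Fadd was -0.0157 by title number and -0.0254 by description number.

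Depth limits Ripk1, Ripk3 and Mlkl most, where counting error was 5.96% to 6.44% of the level. For every member the spread between libraries was larger than counting error.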
